A study of Argopecten irradians with 2 samples.

Results

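Mobile element transcripts of the bay scallop gill were collected as the unigenes whose best Swiss-Prot entry is a mobile element protein or a Piwi protein, by a search for words such as transposon, transposase, retrovirus-related, reverse transcriptase, LINE-1, piggyBac and Piwi in the Swiss-Prot annotation. Of 60308 unigenes with reads in either library, 190 matched these words. At least 10 reads in both libraries together were required, which 125 of the 190 met, out of 38391 unigenes of the series that met it, and 65 matches lay under it. At this limit, 4 matches stood just inside with 11 reads, for example Unigene18870_All with 9 reads in the PA library and 2 in the CN library, and 6 stood just outside with 9 reads. The letters of LINE-1 also occur in the name Midline-1, so that 3 E3 ubiquitin ligase unigenes were taken in. They are kept in the count of 125 and shown as a class of their own, which leaves 122 unigenes annotated to mobile elements or Piwi proteins. The 125 unigenes belong to 111 assembly units: 40 are contigs of 26 clusters (prefix CL) and the others are singletons (prefix Unigene).

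The gills came from bay scallops (Argopecten irradians) exposed for 48 h to 80 mg/L palmitoleic acid, an algicidal fatty acid dissolved in dimethyl sulphoxide (PA), and from control scallops kept for 48 h with the same volume of the solvent and 0 mg/L palmitoleic acid (CN). The sample labels describe each library as RNA pooled from 18 scallops, and the methods describe 3 replicate pools of 6 scallops. There was 1 library per condition, so no difference given here has a replicate check. Ages, sexes and the reproductive stage of the scallops are not given in the sources used here.

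Mobile elements are DNA segments that move or copy themselves within a genome. Retrotransposons do so through an RNA copy and a reverse transcriptase. Those with long terminal repeats (LTR), such as Ty3/gypsy elements, resemble retroviruses and carry gag and pol genes, sometimes with env, while non-LTR elements such as LINE-1, jockey and R2 carry an endonuclease with their reverse transcriptase. DNA transposons such as Tc1, mariner and piggyBac move through a transposase, and some transposase genes have been taken over by host genomes as ordinary genes. Piwi proteins are Argonaute relatives that bind small piRNAs and silence mobile elements, a role best known in the germ line of flies and mice and also described in the body cells of other invertebrates. A polyadenylated transcript with such an annotation need not come from an active element, since old copies inside the transcripts of other genes are read as well.

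The RSEM expected counts of the unigenes, called reads here, summed to 10414545 in the PA library and 10305482 in the CN library, on 54724 unigenes in PA and 52852 in CN. Levels between unigenes are compared as FPKM, the authors' fragment counts scaled by unigene length and library size. The log2 fold change is the FPKM in PA over that in CN with an FPKM of 0 set to 0.01. A unigene is called higher or lower where the exact test of Audic and Claverie, on reads and adjusted over all 60308 unigenes by the method of Benjamini and Hochberg, gave an FDR of at most 0.001 and the fold change was at least 2. This test compares the 2 libraries and not the conditions. Each fold change is followed by a 95% exact interval (Clopper-Pearson, on the PA share of a unigene's reads, turned into a log2 ratio), which covers counting error only. In bulk RNA, fewer cells of a type and less RNA per cell cannot be told apart.

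Among the 125 unigenes, 20 were higher in the PA library than in the CN library (16.0%), where 13.3% of all unigenes with at least 10 reads were. Lower ones numbered 15 (12%), where 10.7% of all unigenes were. These shares lie near those of the whole table. Scaled by TMM or by the median of ratios in place of the library totals, the split became 18 higher and 20 lower, and over all unigenes the lower calls outnumbered the higher ones too, with 9.97% higher and 14.0% lower under TMM and 10.4% higher and 13.7% lower under the median of ratios. Among the 66 unigenes with at least 50 reads, 14 were higher (21.2%, against 19.9% of all unigenes of that depth) and 13 were lower (19.7%, against 15.5%). Without a test, 39 of the 125 had at least 2-fold the FPKM in PA (31.2%, against 27.3% of all unigenes) and 29 had at most 1/2 of it (23.2%, against 19.0%).

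Over the 125 unigenes the log2 fold change had a median of 0.27, with the middle 50% between -0.89 and 1.38. Over all unigenes with at least 10 reads the median was 0.21, with the middle 50% between -0.66 and 1.13. Over those of them with a Swiss-Prot entry, as all members have, the median was 0.27. With 3 reads in place of 3 or fewer, the median of the 125 was again 0.27. Values above 0 were found for 75 unigenes and values below 0 for 50. The TMM factors moved every log2 fold change by -0.25 and the median of ratios moved it by -0.22, which left medians of 0.021 and 0.047 for the 125 unigenes and of -0.032 and -0.0061 for all unigenes. The 59 members with fewer than 50 reads had a median of 0.72, where all unigenes of that depth had 0.35.

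**Figure D1:**
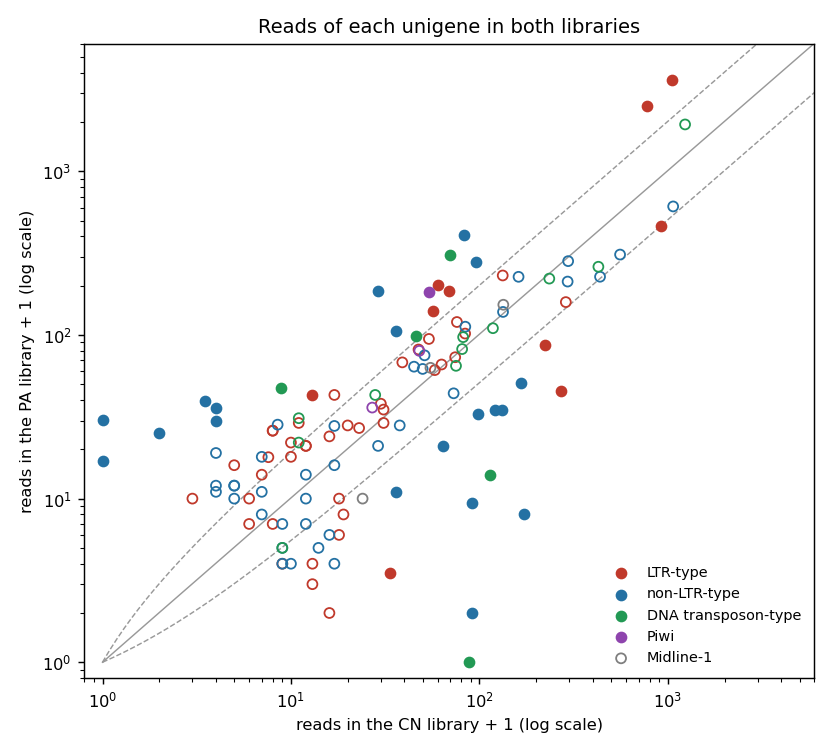
Reads + 1 of each of the 125 unigenes in the PA library (vertical, log scale) and in the CN library (horizontal, log scale). Filled points were called higher or lower, open points were not called, the solid line marks equal shares of the libraries and the dashed lines a 2-fold difference; 2 points of cluster CL803 lie at the upper right above the dashed line, with 3599.57 and 2511.00 reads in PA.

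The variation between pools could not be measured with 1 library per condition. Where a biological coefficient of variation of 0.2 was assumed, the exact test of edgeR called 8 of the 125 higher (6.4%, against 5.06% of all unigenes) and 7 lower (5.6%, against 4.76%). With 0.4 it called 0 higher (against 0.581%) and 2 lower (1.6%, against 1.02%). These were the transposase contig CL3642.Contig1_All and the LINE-1 unigene Unigene26115_All, given with their classes.

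The levels of mobile element unigenes lay slightly under those of the series. Their median was 3.05 FPKM in PA and 2.43 FPKM in CN, where all unigenes with at least 10 reads had a median of 3.52 FPKM in PA and 3.12 FPKM in CN. Those with a Swiss-Prot entry, as all members have, had a higher median of 4.39 FPKM in PA and 3.69 FPKM in CN. An FPKM of at least 10 was reached by 10 of the 125 in PA and by 11 in CN. The highest level belonged to CL2532.Contig2_All, with 70.71 FPKM in PA and 45.59 FPKM in CN. Next in PA came 2 contigs of cluster CL803, with 44.53 and 36.90 FPKM in PA and 13.85 and 10.95 FPKM in CN.

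The largest block of reads came from cluster CL803, annotated as an LTR-type element. CL803.Contig7_All (9380 bp), whose best entry is the Pol polyprotein of the Drosophila transposon 412, the reverse transcriptase and integrase precursor of a gypsy-type element, had 3599.57 reads in PA and 1057.55 reads in CN. Its log2 fold change was 1.75 (interval 1.65 to 1.85, FDR = 3.68e-312 in the exact test of Audic and Claverie). CL803.Contig6_All (5445 bp), annotated to the Env polyprotein of the Drosophila element 17.6, had 2511.00 reads in PA and 773.00 reads in CN, a log2 fold change of 1.68 (1.57 to 1.80). The shorter Env contig CL803.Contig2_All (1389 bp) had 201.81 reads in PA and 59.16 in CN, a log2 fold change of 1.76 (1.34 to 2.2). All 3 were called higher, and they moved by nearly the same amount. The Env entries matched with e-values of 5e-06 and 1e-06 only, while the Pol entry matched with 1e-124.

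Of the other 4 contigs of CL803, which carry no Swiss-Prot entry, CL803.Contig1_All (2702 bp) had 859.37 reads in PA and 305.83 in CN and was also called higher, with a log2 fold change of 1.48 (1.28 to 1.67). The remaining 3 had at most 36.12 reads in PA and 23.00 in CN and were not called. The 7 contigs together had 7238 reads in PA and 2244 in CN, a log2 fold change of 1.67 (1.61 to 1.74). With the exact test of edgeR at a coefficient of variation of 0.2, CL803.Contig7_All was still called, and the other contigs with a mobile element entry were not. The 3 annotated contigs held 38.0% of the reads of the 125 unigenes in PA and 15.2% in CN.

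Summed over all 125 unigenes, 1595 CPM (the usual scaling of reads to the library total) lay in PA and 1204 in CN, a log2 ratio of 0.41 (interval 0.37 to 0.44, counting error only). Without the 3 contigs of CL803 the sums were 988.6 CPM in PA and 1021 in CN, a log2 ratio of -0.046 (-0.085 to -0.0066). The higher sum in PA was thus not found without this cluster, a choice made after seeing the data. Without the 10 unigenes with the most reads, which include CL803.Contig7_All and CL803.Contig6_All, the log2 ratio was 0.20. Summed over all unigenes with at least 10 reads the log2 ratio was -0.0017.

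**Figure D2:**
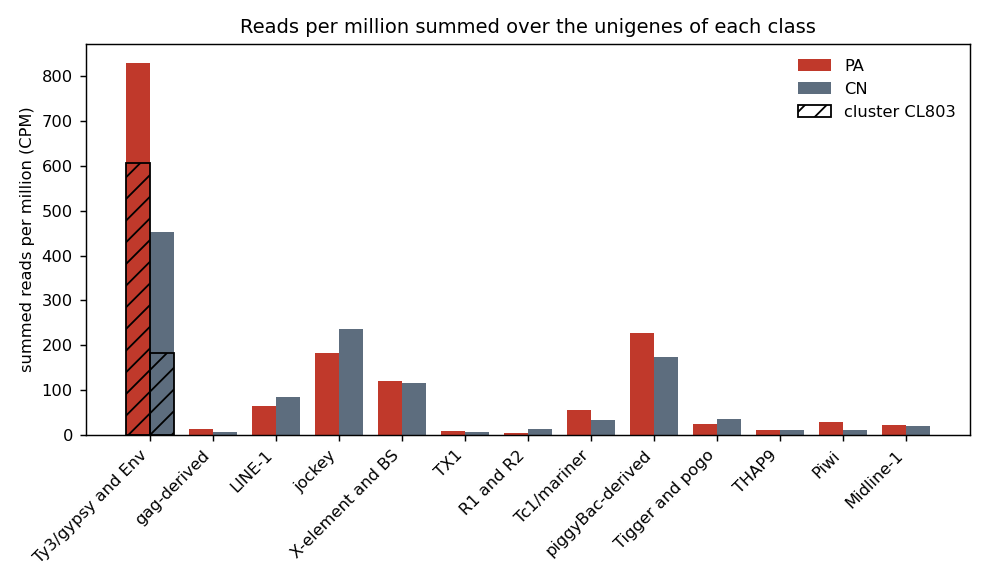
Summed CPM (reads scaled to the library total) over the unigenes of each class (vertical axis, from 0), with the PA library at the left and the CN library at the right of each pair. The hatched part is cluster CL803, which makes up most of the Ty3/gypsy bar in PA; without it the Ty3/gypsy class held 223.9 CPM in PA and 270.1 in CN.

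The Ty3/gypsy and retrovirus-related polyproteins were the largest class, with 41 unigenes matched to Pol or Env proteins of the fly elements 412, 17.6, 297, opus and gypsy. Of these, 6 were higher and 4 were lower in PA, and the median log2 fold change was 0.34. Over all unigenes 13.3% were higher and 10.7% lower, with a median of 0.21, so the calls of this class lie near those of the whole table. The counts of the other classes stand beside the same shares. Without CL803, 38 unigenes remained, of which 3 were higher and 4 lower, with a median of 0.25 (0.0095 with TMM factors). Entries of transposon 412 had a median of 0.65 over 13 unigenes, those of 17.6 had 0.17 over 13 unigenes (-0.074 with TMM factors) and those of 297 had -0.11 over 9 unigenes, with ranges that overlapped widely.

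Among the other Ty3/gypsy unigenes, CL2986.Contig2_All (5376 bp, Pol of 412, with an integrase domain) had the most reads. It had 461.19 reads in PA and 924.66 in CN and was lower in PA, with a log2 fold change of -1.02 (-1.18 to -0.86). With 1 FPKM added to both values this became -0.94, which is under 2-fold. Unigene35308_All (1247 bp, Pol of 412) was higher with 42 reads in PA and 12 in CN, a log2 fold change of 1.79 (0.84 to 2.85), and was not called under TMM or median of ratios scaling. Unigene19300_All (1210 bp, Pol of 17.6) was lower, with 2.53 reads in PA and 32.70 in CN, a log2 fold change of -3.70 (-5.82 to -1.80). The 2 unigenes are fragments, since a complete pol gene of such an element is longer than either.

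In cluster CL3935, which is annotated to Pol of 17.6, contigs of nearly equal length had values of opposite sign. CL3935.Contig4_All (3727 bp) had 44.16 reads in PA and 270.11 in CN and was lower, with a log2 fold change of -2.63 (-3.13 to -2.17). CL3935.Contig3_All (3786 bp) had 80.52 reads in PA and 46.54 in CN, a log2 fold change of 0.78 (0.23 to 1.32), and was not called. The cluster as a whole thus mixed a contig seen mainly in CN with contigs seen more in PA. Summed over its 4 contigs, CL3935 had 223.81 reads in PA and 381.65 in CN.

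The remaining called unigenes of the class were named after their values were known. CL3238.Contig1_All (1596 bp, Pol of 17.6) was lower, with 85.79 reads in PA and 222.36 in CN, a log2 fold change of -1.39 (-1.76 to -1.02). Unigene75_All (5018 bp, Pol of 412) was higher, with 185 reads in PA and 68 in CN, a log2 fold change of 1.43 (1.02 to 1.85). Unigene19354_All (2929 bp, Pol of 17.6) was higher, with 139 reads in PA and 56 in CN, a log2 fold change of 1.30 (0.84 to 1.77). All 3 had at least 50 reads in each library. The unigenes matched to the fly element opus were not called, with 230 reads in PA and 132 in CN for Unigene19326_All (4402 bp) and 157.80 in PA and 286.58 in CN for CL789.Contig2_All (4820 bp).

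Gag-derived proteins are host genes that descend from a retrotransposon gag gene, known from mammals as RTL1 and PEG10. The 7 unigenes of this class had few reads, 13 to 58 in both libraries together, and 0 of them were called in either direction. Their median log2 fold change was 1.38, with 6 values above 0, and their reads summed to 152 in PA and 68 in CN. The best Nr entries of several of them name other genes, such as neurobeachin, an EF-hand protein and a phosphatase of the RNA polymerase II C-terminal domain. The Swiss-Prot annotation of this class is therefore uncertain.

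**Figure D3:**
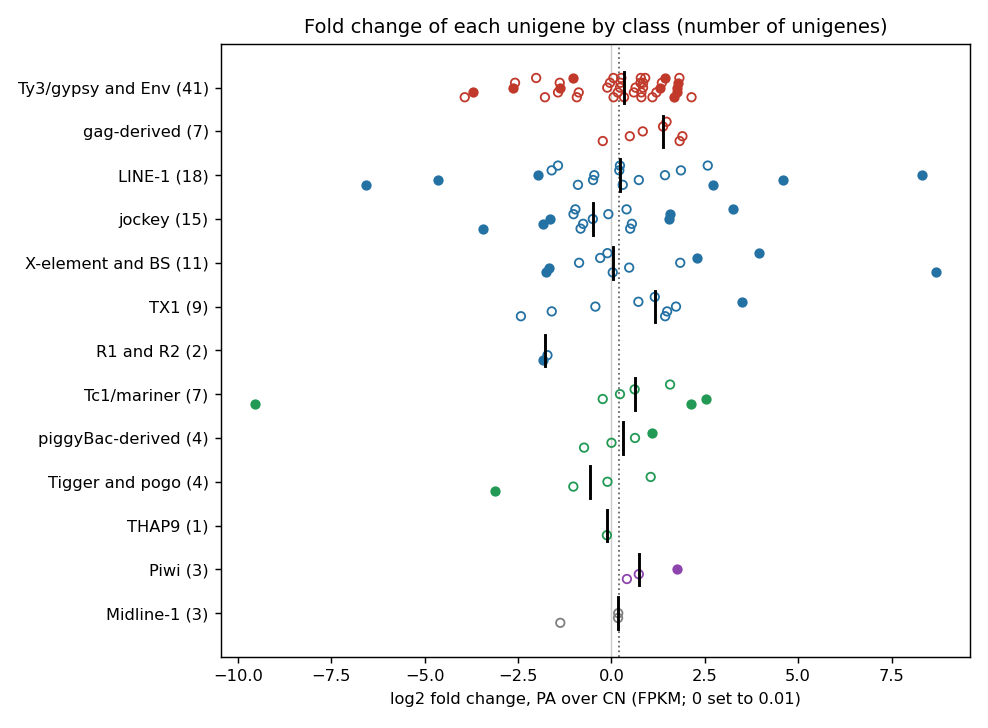
Log2 fold change (PA over CN, horizontal) of each of the 125 unigenes by class, with the number of unigenes in parentheses. Filled points were called, open points were not; the black bar is the median of the class and the dotted line the median of all unigenes with at least 10 reads (0.21), and most classes have points on both sides of it.

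LINE-1-type unigenes, matched to the second open reading frame protein of a mammalian LINE-1 or to a related reverse transcriptase, numbered 18. They divided evenly, with 3 higher and 3 lower in PA, and their median log2 fold change was 0.22 (-0.024 with TMM factors). Several of these had large contrasts between the libraries. Unigene40303_All (3738 bp, with an endonuclease-reverse transcriptase domain) was higher, with 185 reads in PA and 28 in CN, a log2 fold change of 2.72 (2.13 to 3.34). Unigene44126_All (922 bp) had 29.14 reads in PA and 0 in CN, which is at least 9.61-fold higher against a floor of 3 reads per library.

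In the opposite direction, Unigene26115_All (1587 bp, with an endonuclease domain) had 1 read in PA and 90 in CN, a log2 fold change of -6.56 (-11.83 to -3.99). CL2585.Contig1_All (1904 bp, with a reverse transcriptase domain) had 34 reads in PA and 131 in CN, a log2 fold change of -1.96 (-2.55 to -1.41). Unigene21993_All (2607 bp), which lies outside the naming rule and was chosen for its values, had 7 reads in PA and 172 in CN, a log2 fold change of -4.64 (-5.97 to -3.56). Unigene26115_All and Unigene21993_All were thus nearly absent from the PA library. Unigene33048_All (447 bp), likewise chosen for its values, had 24 reads in PA and 1 in CN (log2 fold change 4.60, 1.95 to 9.93), and shares its best Nr entry, a limpet protein, with Unigene44126_All.

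Jockey-type RNA-directed DNA polymerases, the reverse transcriptases of a fly non-LTR element, numbered 15. The median log2 fold change was -0.50, with 9 values below 0, and 3 were higher and 3 were lower in PA. Their reads summed to 182.1 CPM in PA and 236.6 in CN, a log2 ratio of -0.38 (-0.47 to -0.29). Most of these reads lay in cluster CL2749, with 4 contigs whose best Nt entry is the manganese superoxide dismutase gene of the bay scallop itself.

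In that cluster, CL2749.Contig4_All (9625 bp) had 609.14 reads in PA and 1066.51 in CN, a log2 fold change of -0.82 (-0.97 to -0.68). CL2749.Contig3_All (3442 bp) had 225.91 reads in PA and 435.81 in CN, a log2 fold change of -0.96 (-1.20 to -0.73). Both stayed under 2-fold and were not called, but passed under TMM and median of ratios scaling. CL2749.Contig5_All (4448 bp) had 281.61 reads in PA and 294.87 in CN, and CL2749.Contig2_All (2633 bp) had 74.09 in PA and 50.19 in CN, so the 4 contigs ran from -0.96 to 0.55.

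Of the other jockey-type unigenes, CL1361.Contig2_All (969 bp) was lower, with 10 reads in PA and 35 in CN, a log2 fold change of -1.83 (-3.00 to -0.78). CL3725.Contig1_All (1704 bp) was lower, with 31.66 reads in PA and 96.81 in CN (-1.63, -2.24 to -1.03), while CL3725.Contig2_All (2347 bp) had 111.34 in PA and 83.19 in CN. Unigene37867_All (712 bp) was higher, with 29 reads in PA and 3 in CN, a log2 fold change of 3.26 (1.57 to 5.62). Cluster CL1751 was chosen for its values. Its CL1751.Contig4_All (5911 bp) was higher with 279.95 reads in PA and 95.10 in CN, its CL1751.Contig3_All (1426 bp) was lower with 8.41 in PA and 90.41 in CN, and its longest contig, CL1751.Contig5_All (12567 bp), is annotated to the membrane transporter Slc4a11 and had 1228.62 reads in PA and 1496.29 in CN. A jockey-type sequence and a host gene thus shared 1 cluster. CL787.Contig1_All (2311 bp), the last called unigene of this class, was higher with 104.98 reads in PA and 35.30 in CN, a log2 fold change of 1.56 (1.01 to 2.17).

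X-element and BS-type polymerases, from fly elements related to jockey, numbered 11, with 3 higher and 2 lower in PA and a median log2 fold change of 0.038 (-0.21 with TMM factors). CL5208.Contig1_All (2389 bp, BS) was higher, with 405.02 reads in PA and 82.31 in CN, a log2 fold change of 2.29 (1.94 to 2.65). CL5208.Contig3_All (2864 bp) of the same cluster had 137.29 reads in PA and 132.48 in CN, a log2 fold change of 0.038 (-0.32 to 0.39). CL4918.Contig1_All (780 bp, X-element) was higher, with 38.69 reads in PA and 2.50 in CN, a log2 fold change of 3.95 (2.32 to 7.37), and its neighbour CL4918.Contig2_All (780 bp) had 27.31 in PA and 7.50 in CN. These 2 contigs pointed the same way. The third called X-element or BS-type unigene in this direction, Unigene36939_All (421 bp), had 16 reads in PA and 0 in CN, which is at least 5.28-fold higher against the floor of 3 reads.

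CL4024.Contig1_All (3244 bp, BS) was lower, with 49.73 reads in PA and 164.75 in CN, a log2 fold change of -1.74 (-2.22 to -1.27). CL642.Contig1_All (1690 bp, BS) was lower, with 20.11 reads in PA and 63.18 in CN, a log2 fold change of -1.66 (-2.47 to -0.93). Unigene8731_All (2236 bp, X-element) had the most reads of the class, 309 in PA and 557 in CN. Its log2 fold change of -0.86 (-1.07 to -0.66) was not called, and passed 2-fold only under TMM and median of ratios scaling. In CL4024 a second contig with no Swiss-Prot entry, CL4024.Contig2_All (1520 bp), had more reads in PA, with 86.29 reads in PA and 18.01 in CN.

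TX1 is a non-LTR element known from the frog Xenopus laevis. The 9 TX1-type unigenes had 13 to 38 reads each, with a median log2 fold change of 1.16 and 6 values above 0. Only Unigene37213_All (1392 bp, with a reverse transcriptase domain) was called, higher with 35 reads in PA and 3 in CN, a log2 fold change of 3.51 (1.86 to 5.87). R1 and R2 elements insert into ribosomal RNA genes in insects. The 2 unigenes of this type had values below 0, and CL1493.Contig3_All (1631 bp, R2) was lower, with 34 reads in PA and 120.04 in CN, a log2 fold change of -1.84 (-2.43 to -1.27). A contig of the same cluster with no Swiss-Prot entry, CL1493.Contig4_All (2105 bp), had 330.09 reads in PA and 80.92 in CN and was called higher.

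Among DNA transposon proteins, the piggyBac-derived unigenes had the most reads. PGBD4 is a human gene of unknown function that descends from a piggyBac transposase. CL2532.Contig2_All (2667 bp, PGBD4) had 1932.86 reads in PA and 1233.90 in CN, a log2 fold change of 0.63 (0.53 to 0.74) that stayed under 2-fold. CL2532.Contig3_All (2665 bp) had 260.14 reads in PA and 427.10 in CN, a log2 fold change of -0.73 (-0.96 to -0.51), also not called. These 2 contigs have nearly the same length and annotation and had values of opposite sign. Of the 4 piggyBac-derived unigenes 1 was higher in PA, namely Unigene19646_All (1763 bp, PGBD4) with 97 reads in PA and 45 in CN, a log2 fold change of 1.10 (0.57 to 1.64). The relative of PGBD5, a more widely conserved vertebrate gene, Unigene10268_All, had 81 reads in PA and 80 in CN.

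Tc1/mariner-type transposases cut and paste their own element through a DDE-type endonuclease. Of 7 unigenes, 2 were higher and 1 was lower in PA. CL665.Contig1_All (2266 bp, Tcb1) was higher, with 307.04 reads in PA and 68.77 in CN, a log2 fold change of 2.15 (1.76 to 2.54), and CL665.Contig2_All (997 bp), which carries no Swiss-Prot entry, had 42.81 in PA and 2.65 in CN. These 2 contigs of CL665 match a microsatellite sequence of the bay scallop in Nt. A short contig of the same cluster, CL665.Contig3_All (221 bp), had 5 reads in PA and 9 in CN and was not called. The mariner contig CL2189.Contig1_All (1098 bp, Mos1) was higher, with 46.22 reads in PA and 7.85 in CN, a log2 fold change of 2.53 (1.41 to 3.80), while CL2189.Contig3_All (1486 bp) had 63.78 in PA and 74.15 in CN and was not called.

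CL3642.Contig1_All (1190 bp, Tcb2) had 0 reads in PA and 87 in CN, which is at least 29.3-fold lower against a floor of 3 reads per library. CL3642.Contig2_All (730 bp, Tcb2), with 42 reads in PA and 27 in CN, was not called and had a value above 0.

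Tigger and pogo-derived proteins are DNA-binding host proteins that descend from pogo transposases. Unigene27919_All (2005 bp), matched to the pogo element with KRAB domain, was lower, with 13 reads in PA and 113 in CN, a log2 fold change of -3.13 (-4.09 to -2.30). The other 3 unigenes of this class were not called, nor was the 1 unigene matched to THAP9, a transposase-like host protein, with 109 reads in PA and 117 in CN. The 3 Midline-1 unigenes, ubiquitin ligases with no relation to mobile elements, were not called either, and their reads summed to 223 in PA and 210 in CN.

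Piwi proteins were represented by 3 unigenes. Unigene10831_All (3373 bp), matched to human Piwi-like protein 1, had 181 reads (5.21 FPKM) in PA and 53 reads (1.54 FPKM) in CN. It was higher in PA, with a log2 fold change of 1.76 (1.31 to 2.23, FDR = 4.07e-16 in the exact test of Audic and Claverie), and was not called with an assumed coefficient of variation of 0.2. Unigene2927_All (2038 bp), matched to trout Piwi-like protein 2, had 79 reads in PA and 47 in CN, a log2 fold change of 0.73 (0.20 to 1.29), and was not called. Unigene12657_All (883 bp), matched to Piwi-like protein 1 and in Nr to a Piwi-like 2 protein of amphioxus, had 35 reads in PA and 26 in CN, a log2 fold change of 0.42 (-0.36 to 1.2), and was not called. All 3 values lay above 0, in PA over CN, under the 3 scalings.

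Partners of Piwi in the piRNA pathway, known from flies and mice, were gathered by name from the other unigenes. Of 23 with at least 10 reads, 7 were higher and 0 were lower in PA, with a median log2 fold change of 1.21 (0.97 with TMM factors). Over all unigenes 13.3% were higher and 10.7% lower, with a median of 0.21. Unigenes with at least 10 reads and a Swiss-Prot entry had a median of 0.27. Called either way were 30.3% of those unigenes and 30.4% of the 23 partners. Exonuclease 3'-5' domain-containing protein 1, which in mice acts in piRNA production, matched 6 of them, of which 3 were higher: Unigene3993_All had 238 reads in PA and 22 in CN (log2 fold change 3.42, 2.79 to 4.12), and the other two were Unigene48034_All and Unigene8772_All. Tudor domain proteins, some of which bind methylated Piwi proteins, were higher in 2 of 6. Unigene12884_All (Tudor domain-containing protein 7B) had 267 reads in PA and 98 in CN. Unigene45097_All (Tudor domain-containing protein 6) had 39 reads in PA and 6 in CN. Another of the 6, Unigene15374_All (Tudor domain-containing protein 3), had 287.16 reads in PA and 354.77 in CN and was not called. Protein arginine methyltransferase 5, which methylates Piwi proteins among many others, was higher in Unigene14459_All with 176 reads in PA and 75 in CN (1.22, 0.82 to 1.63).

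The germ cell helicase DDX4, called Vasa in flies, had the most reads of the partners and was not called in any of its 3 unigenes. CL4923.Contig1_All had 721 reads in PA and 835 in CN (log2 fold change -0.23, -0.37 to -0.081), and CL4923.Contig2_All had 586 in PA and 887 in CN (-0.61, -0.77 to -0.46). The short CL5036.Contig2_All (719 bp) had a value above 0, with 58 reads in PA and 29 in CN (0.99, 0.32 to 1.68). The RNA helicase spindle-E had 5 unigenes, 1 of them called, with contigs of 1 cluster in opposite directions: CL1992.Contig1_All had 33.65 reads in PA and 0 in CN, and CL1992.Contig2_All had 25.35 in PA and 49 in CN. The sum over the 23 partners gave a log2 ratio of 0.26 only (0.011 with TMM factors), well under their median. DDX4 held 1365 of their 3809 reads in PA and 1751 of 3156 in CN. The words for MOV10L1, mitochondrial cardiolipin hydrolase and PNLDC1 matched no unigene with reads.

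**Figure D4:**
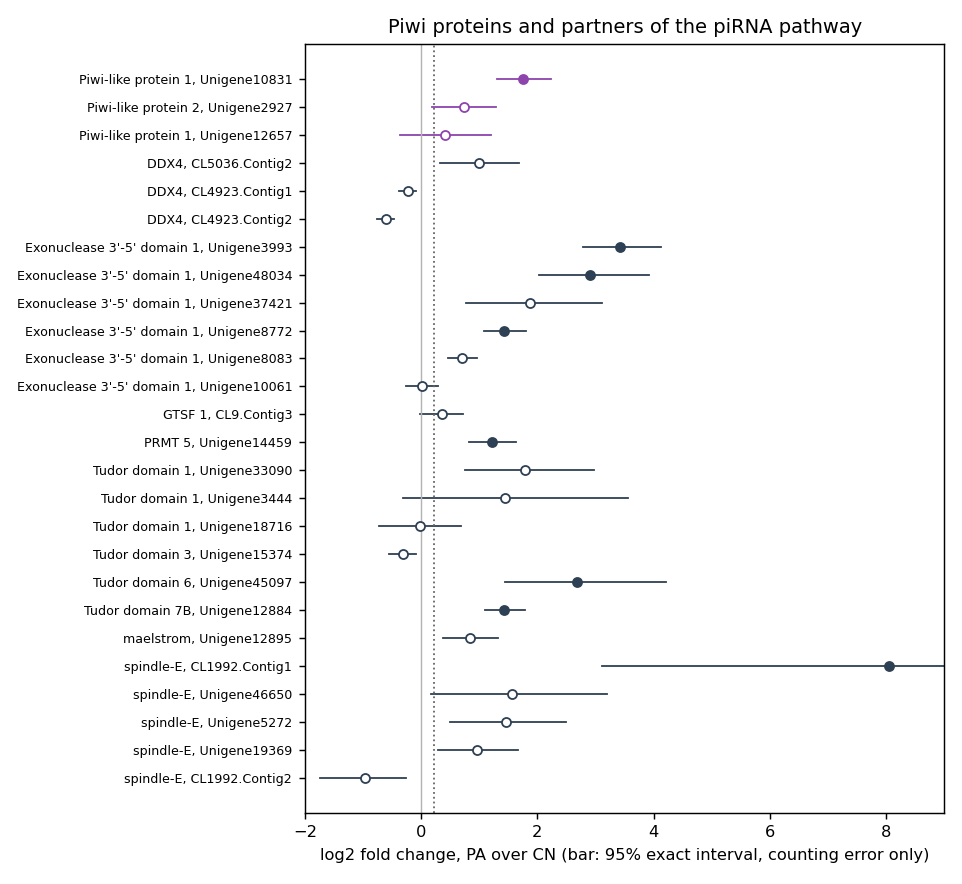
Log2 fold change (PA over CN, horizontal) of the 3 Piwi unigenes (purple) and of 23 unigenes matched to piRNA pathway partners (dark), with 95% exact intervals that cover counting error only. Filled points were called, the dotted line is the median of all unigenes with at least 10 reads (0.21), and the bar of CL1992.Contig1_All, with 0 reads in CN, runs beyond the right edge.

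Argonaute proteins are relatives of Piwi that bind microRNAs, and were gathered with the enzymes that make microRNAs. Of 12 unigenes, 2 were higher and 0 were lower, with a median log2 fold change of -0.27, beside 13.3% higher, 10.7% lower and a median of 0.21 over all unigenes. The list takes in 2 contigs matched to ERI1 exoribonuclease 3 through the word ribonuclease 3, and CL1251.Contig2_All, with 25.68 reads in PA and 0 in CN, is 1 of the 2 that were called. The Argonaute contig with the most reads, CL1033.Contig4_All, had 331 reads in PA and 403 in CN (-0.30, -0.51 to -0.086). The double-stranded RNA binding protein TARBP2, Unigene16435_All, was higher with 246 reads in PA and 84 in CN (1.54, 1.17 to 1.91). The difference between this list and the piRNA partners was not tested.

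Chromatin silencing factors repress mobile elements at the level of histones and DNA, and 47 unigenes with at least 10 reads were matched to such factors by name. Of these 16 were higher and 5 were lower in PA, with a median log2 fold change of 0.87 (0.62 with TMM factors). Over all unigenes 13.3% were higher and 10.7% lower, with a median of 0.21. Called either way were 44.7% of the 47 and 30.3% of unigenes with at least 10 reads and a Swiss-Prot entry. The word UHRF1 took in 2 unigenes matched to UHRF1-binding protein 1-like, which were not called. Whether the matched scallop proteins silence mobile elements was not tested. Of the 16 higher ones, 8 were among the 10 unigenes matched to transcription intermediary factor 1-beta, a mammalian corepressor of KRAB zinc finger proteins, for example CL47.Contig8_All with 800.93 reads in PA and 235.76 in CN (1.75, 1.54 to 1.96). Unigenes matched to the chromatin remodeller ATRX were higher in 4 of 13 cases and lower in 2. Chromobox protein homolog 1, a heterochromatin protein, was higher in Unigene1947_All with 299 reads in PA and 148 in CN, only just over 2-fold. Contigs of 1 cluster matched to the methyl-CpG-binding domain protein 2 were called in both directions, 2 higher and 2 lower.

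A list gathered by words for factors that attack retroelement nucleic acids had 1 higher and 1 lower of 15. Its median was 0.43, beside the same values over all unigenes. The words adenosine deaminase matched 8 of the 15, among them unigenes matched to tRNA-specific deaminases and to enzymes of free adenosine. The list is therefore wider than its name. The higher one was Unigene19336_All, 1 of 3 unigenes matched to the DNA exonuclease TREX1, with 288 reads in PA and 89 in CN (1.68, 1.33 to 2.04). The other TREX1 matches were not called: CL3547.Contig1_All had 34 reads in PA and 57.49 in CN, and CL3547.Contig2_All had 32 in PA and 23.51 in CN. The lower one was Unigene4998_All, an adenosine deaminase of the kind that acts on free adenosine, with 37 reads in PA and 104 in CN (-1.50, -2.09 to -0.95).

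Markers of cell types differed between the libraries as well, and their counts stand beside 13.3% higher and 10.7% lower over all unigenes. Of the 16630 unigenes with at least 10 reads and a Swiss-Prot entry, 2950 were higher and 2094 were lower. Tektins, radial spoke and axonemal proteins of gill cilia were higher in 23 of 84 unigenes and lower in 0, and summed to 1915 CPM in PA and 849.6 in CN. Germ line and gonad markers had 0 of 5 called, with 3 values above 0, 2 below 0 and a median log2 fold change of 0.99. Of these, 3 are the DDX4 unigenes already counted among the Piwi partners, and the median is the value of CL5036.Contig2_All. The others had few reads: 17 in PA and 3 in CN for a vitellogenin match, and 7 in PA and 3 in CN for a match to synaptonemal complex protein SC65. The 5 markers summed to 133.4 CPM in PA and 170.5 in CN, nearly all from DDX4. The words nanos, protamine, boule and zona pellucida matched no unigene with reads. Muscle markers were higher in 6 and lower in 5 of 28, with 823.0 CPM in PA and 681.8 in CN. Markers of blood cells and their precursors, a list of 4 unigenes with Runx1 and Tal1 relatives, were higher in 0 and lower in 2. They summed to 61.7 CPM in PA and 140.0 in CN. The 1 value above 0 was that of Unigene45810_All (CBFA2T1), with 25 reads in PA and 8 in CN. The words GATA-binding factor and hemocytin matched no unigene. The part of these cell types in the mobile element and Piwi values was not tested.

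Contigs of 1 cluster were grouped by gene family clustering. They can be variants of 1 sequence or different genes, as in CL1751, and can share reads. In 11 clusters, 2 or more contigs were mobile element members, and in 8 of these the members had values of both signs. The highest and the lowest member contig of a cluster differed by a median of 2.10 on the log2 scale. The range was 0.071 in CL803 to 10.15 in CL3642, where the FPKM of 0.01 that stands for 0 set the value. Contigs without a mobile element entry are left out of this, such as CL803.Contig3_All with a log2 fold change of -0.27. In 8 of 11 clusters the intervals of the highest and the lowest member did not overlap. The 2 contigs were chosen as the extremes among the members of their cluster, so these differences are a description. Of the 35 called unigenes, 20 were contigs of clusters and 15 were singletons. When each cluster was read as 1 sum, 11 of the 20 belonged to a cluster with at least 2-fold the same way, 7 to one with the same sign under 2-fold and 2 to one with the opposite sign. Called on summed clusters, 16 of the 111 units were higher (14.4%, against 10.9% of all units with at least 10 reads) and 8 were lower (7.21%, against 7.79%).

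**Figure D5:**
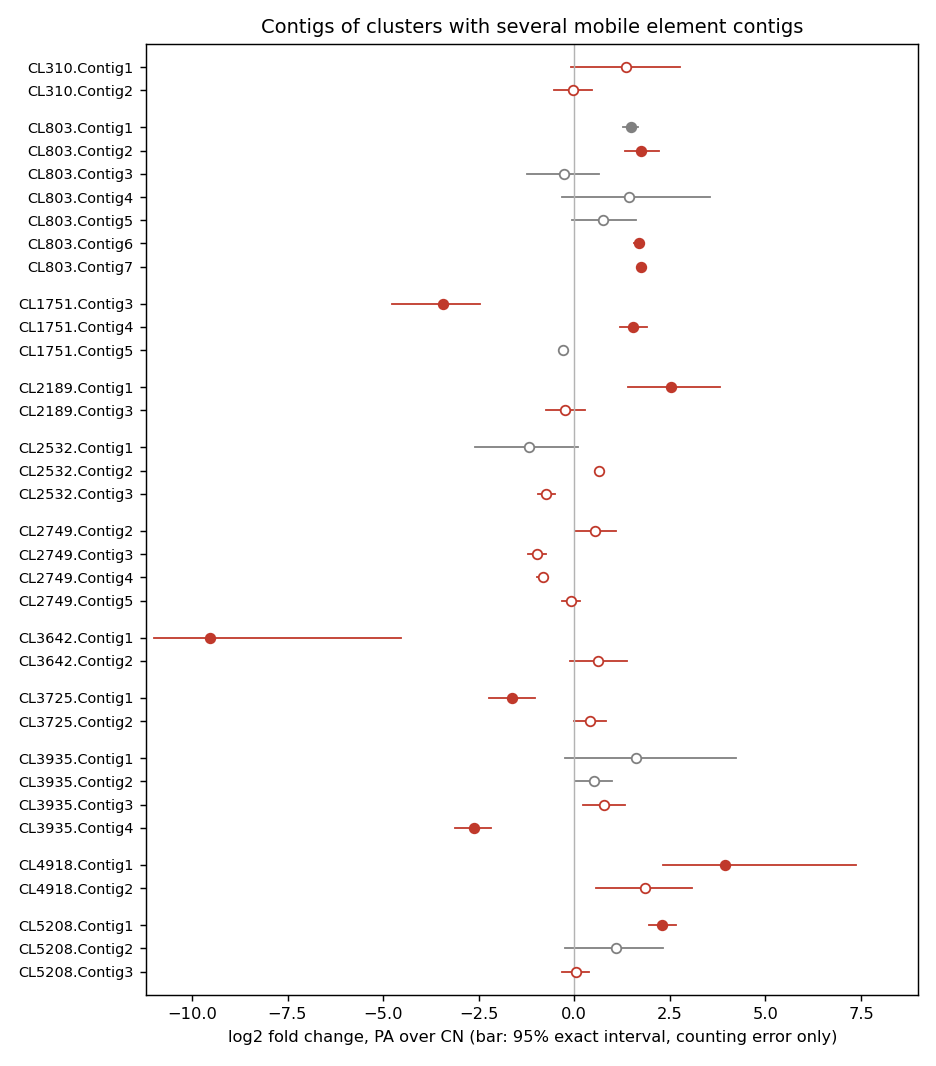
Log2 fold change (PA over CN, horizontal) of each contig with at least 10 reads in the 11 clusters that hold several mobile element contigs, with 95% exact intervals that cover counting error only. Red contigs carry a mobile element entry, grey ones do not, and filled points were called; the 3 red contigs of CL803 sit between 1.68 and 1.76, while those of CL1751, CL3642 and CL3935 lie on both sides of 0. The bar of CL3642.Contig1_All, with 0 reads in PA, has no lower end.

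Reads were not whole numbers in 28.8% of the 125 unigenes, against 26.0% of all unigenes with at least 10 reads, which shows that RSEM divided reads between similar unigenes. Among the 89 unigenes with whole numbers in both libraries (within 0.005), 11 were higher (12.4%, against 10.2% of all such unigenes) and 6 were lower (6.74%, against 7.01%). Copies of a mobile element are alike in sequence, so the values of single contigs are uncertain. The strand of the reads is not stated in the sources used here, so sense and antisense transcripts cannot be told apart.

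The annotation of the members was thin beyond Swiss-Prot. An Interpro entry was given for 91 of 125, and it named a reverse transcriptase in 32, an endonuclease in 10, a transposase or DDE domain in 8, an integrase in 3 and a Piwi domain in 2. All 125 had an Nr entry, of which 60 were uncharacterized or hypothetical proteins and 37 held 1 of the search words themselves. The best Nr entries came most often from the acorn worm Saccoglossus (22), the sea urchin Strongylocentrotus (16), the limpet Lottia (15), the sea squirt Ciona (10) and the oyster Crassostrea (8), and 0 came from a protist. The Swiss-Prot entry belonged to a Drosophila species in 69 of 125, and the e-value was at most 1e-10 in 97. Members that were contigs of clusters made up 32.0%, against 30.1% of all unigenes with at least 10 reads. Their median length was 1110 bp, against 846 bp for all such unigenes.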

How the data were processed

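Gill RNA of PA and CN scallops was poly-A selected, made into 1 library per condition and sequenced as paired ends. Per the methods and the submitters' processing notes, reads were filtered with SOAPnuke, assembled with Trinity, merged into unigenes with TGICL, mapped with Bowtie and annotated by similarity search. The authors deposited RSEM expected counts per unigene, not normalized, which divide reads between similar unigenes. The authors also deposited FPKM values from these counts scaled by unigene length and library size. Their comparison table was used for lengths and annotations only. It repeats the FPKM in 2 per-sample columns, which were not used, and holds the authors' own fold changes, p-values and FDR, which were not used either. Totals were 10414545 reads in PA and 10305482 in CN.

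Expected counts were rounded and compared by the two-sided exact test of Audic and Claverie over all 60308 unigenes, with Benjamini-Hochberg adjustment. After the study's methods, calls needed an adjusted p of 0.001 or less and at least a 2-fold difference. The quasi-likelihood test of edgeR could not be fitted with 1 library per condition. Its exact test was run with assumed coefficients of variation of 0.2 and 0.4. The test and the interval were tried on simulated data with counting error only. The changed unigenes in the simulation had more reads than many of the members. Variation between pools was not simulated, so the simulation cannot show how well the calls hold between conditions. Classes were set by words of the Swiss-Prot entry, and list members by words of the same column. The members and lists were chosen with earlier results of these data known.

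Unigenes were named by a rule: the 8 largest rises and 8 largest falls among called members with at least 10 reads in each library, the 4 called in each direction with the most reads among those with 3 reads or fewer in the other library, the 8 with the most reads, and every Piwi protein. Contigs of the same cluster stand beside them, and all other unigenes given with values were chosen after their values were seen. The alternatives were other scalings, filters, annotation rules, thresholds and sums over clusters. R 4.3.3 with edgeR 4.0.16 and Python 3.11.15 were used, with scipy 1.17.1 and numpy 2.4.6 for statistics, pandas 2.3.3 for tables and matplotlib 3.10.9 for plots. Unigene sequences were not used here.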

Additional observations from a re-analysis of the deposited data

How the results depend on the processing

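No paired analysis was possible because there was 1 library per condition, and no library could be left out. Of the 20 higher and 15 lower calls, 10 and 7 reached a fold change of 4, and 11 and 6 were found among unigenes with whole-number reads. With each cluster summed, 16 were higher and 8 lower. The exact test of edgeR gave 8 higher and 7 lower with an assumed coefficient of variation of 0.2, and 0 higher and 2 lower with 0.4. Without a test, 39 were at least 2-fold higher and 29 lower. TMM and median of ratios scaling each gave 18 higher and 20 lower. Of the 31 unigenes named by rule, 0 changed sign under TMM or median of ratios scaling or with 1 FPKM added. Not all of the 31 had been called. Of those called, 12 were no longer called with a coefficient of variation of 0.2 and 22 with 0.4, which left only the 2 lower ones. With each cluster summed, 2 named contigs took the other sign: CL1493.Contig3_All had -1.84 and its cluster 0.74, and CL2532.Contig3_All had -0.73 and its cluster 0.38. A further 5 contigs that were called lay in clusters that were not. The median of 0.27 was 0.021 with TMM factors.

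The log2 ratio of the summed reads, 0.41, was 0.16 with TMM factors, 0.19 with the median of ratios, 0.32 with e-values of at most 1e-10, 0.35 with the words sought in Nr, 0.49 for whole-number reads, 0.18 without the unigene with the most reads, CL803.Contig7_All, and 0.20 without the 10 with the most. Without cluster CL803, a choice made after seeing the data, it was -0.046. At 3 reads or fewer in 1 library, which held for 10 of the 125 unigenes in PA and 10 in CN, depth limits the size of a difference, and the assembly limits single contigs.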
